A study of Mus musculus with 2 samples.

Results

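The 10 genes described here, Atf4, Ddit3, Xbp1, Trib3, Chac1, Asns, Sesn2, Ddit4, Nupr1 and Hspa5, belong to the integrated stress response and the unfolded protein response. They were chosen by name as members of these pathways, with earlier results of these data known, and are 10 of the 31053 genes of the deposited matrix. All 10 passed the filter of 10 unique molecular identifiers (UMIs, each standing for a single captured RNA molecule) over the kept cells, as did 15474 genes in all. They were measured by single-cell RNA sequencing of mouse small intestinal organoids, epithelial structures grown in culture.

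The study has 2 groups of organoids on culture day 3, a control group and a group treated with melatonin, the hormone of the pineal gland and gut, with 1 library each. Cells of 3 organoid lines were pooled in each group, and the lines cannot be told apart. The 3 files deposited for the control sample were identical to the 3 deposited for the melatonin sample, so the data are a single matrix whose barcodes end in the suffix 1 or 2. No label links a suffix to a treatment, and control was therefore not compared with melatonin. Barcodes of suffix 1 are called set 1 and those of suffix 2 set 2 (names given here, not taken from the library names), the direction of any ratio between them is arbitrary, and with 1 pool per set there is no replicate and no test. All intervals are 95% intervals that cover counting error only.

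In the integrated stress response, kinases that sense amino acid shortage, unfolded proteins, heme shortage or double-stranded RNA phosphorylate the initiation factor eIF2, which lowers general translation while the Atf4 mRNA is translated more. The protein ATF4 then switches on genes for amino acid supply, redox balance and, with CHOP (the product of Ddit3), for cell death or recovery. In the unfolded protein response, the endoplasmic reticulum (ER) sensors PERK, IRE1 and ATF6 act through ATF4, through splicing of the Xbp1 mRNA and through cleaved ATF6, and raise chaperones such as BiP (Hspa5). Secretory cells of the gut depend on this response. Counts from the 3′ ends of transcripts, as here, show neither eIF2 phosphorylation nor translation nor Xbp1 splicing.

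The RefSeq promoter table (build GRCm38.p6) held a window for all 10 genes, and the 250 bases before the start of each were searched on both strands for a pair of motifs. TGATGNAA, the core of the C/EBP-ATF response element through which ATF4 acts, was found in 3 of the 10 windows (Chac1, Asns and Nupr1) and in 3.45% of all 32851 promoter windows. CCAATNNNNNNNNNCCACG, the ER stress response element used by ATF6 and XBP1, was found in the Hspa5 window and in 0.113% of all windows. The 4 windows with a match are shown because they are those of the 10 that hold either motif, 5′ to 3′ on the gene's strand, with the matched bases in capitals.
Chac1 (chr2:119350992-119351241, plus strand): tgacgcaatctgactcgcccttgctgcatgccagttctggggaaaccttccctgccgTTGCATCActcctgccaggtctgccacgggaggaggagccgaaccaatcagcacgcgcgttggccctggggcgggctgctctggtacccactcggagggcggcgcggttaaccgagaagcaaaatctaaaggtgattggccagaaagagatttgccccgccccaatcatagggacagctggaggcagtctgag
Asns (chr6:7693210-7693459, minus strand): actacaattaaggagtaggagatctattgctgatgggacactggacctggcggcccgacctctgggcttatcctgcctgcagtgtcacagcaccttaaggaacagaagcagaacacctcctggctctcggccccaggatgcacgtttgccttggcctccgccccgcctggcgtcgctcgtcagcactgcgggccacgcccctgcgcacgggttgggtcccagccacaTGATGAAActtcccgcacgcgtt
Nupr1 (chr7:126625471-126625720, minus strand): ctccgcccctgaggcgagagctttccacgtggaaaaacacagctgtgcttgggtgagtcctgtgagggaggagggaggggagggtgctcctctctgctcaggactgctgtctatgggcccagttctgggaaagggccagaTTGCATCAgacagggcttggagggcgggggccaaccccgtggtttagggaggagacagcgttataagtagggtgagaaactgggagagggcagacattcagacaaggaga
Hspa5 (chr2:34771840-34772089, plus strand): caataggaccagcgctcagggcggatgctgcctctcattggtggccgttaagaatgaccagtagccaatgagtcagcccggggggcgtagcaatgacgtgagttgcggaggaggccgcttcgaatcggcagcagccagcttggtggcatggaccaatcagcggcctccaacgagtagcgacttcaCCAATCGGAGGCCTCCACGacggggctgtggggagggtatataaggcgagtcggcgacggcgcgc
The match lay on the gene's own strand in Asns and Hspa5 and on the other strand in Chac1 and Nupr1. In Asns it covered bases 23 to 16 before the start, and in Hspa5 bases 65 to 47. The other 6 windows did not hold these letters, and the files do not bear on binding.

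A barcode was kept as a cell from 500 genes and 1000 UMIs upwards and up to a mitochondrial share of 20%, which left 2300 of 12364 barcodes in set 1 and 1766 of 9442 in set 2. Kept cells held 61628537 and 51111519 UMIs, with medians of 29872 and 28759 per cell. There were 29 barcode sequences with both suffixes, of which 7 kept cells carried one and 0 were kept in both sets. The epithelial genes Epcam, Cdh1, Krt8 and Vil1 summed to 2518 and 2962 CPM (counts per 1000000 UMIs), while 8 immune markers summed to 2.71 and 2.11 CPM with Ptprc at 0, and 9 mesenchymal markers to 5.31 and 3.74 CPM with Col3a1, Dcn and Lum at 0. Cells were put into classes by marker counts that include none of the 10 genes. The classes of at least 50 cells per set that were compared are enteroendocrine-gated (281 and 278 cells in sets 1 and 2), enterocyte-gated (110 and 171), dividing stem-high (1053 and 641), dividing stem-low (360 and 211) and resting stem-high (112 and 220). No stem marker was among the 10 leading genes of the last class, and Nupr1 was, so it is called by its gate only.

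Enteroendocrine-gated cells, the hormone-secreting cells of the gut epithelium, had the highest level of 8 of the 10 genes among the 5 compared classes in both sets, all but Ddit3 and Nupr1, against 45.6% of all tested genes. Of the 10, 6 were at least 2-fold above all other kept cells in both sets (Atf4, Ddit3, Chac1, Sesn2, Hspa5 and Xbp1) against 21.2% of all tested genes, and 0 were 2-fold below against 7.33%. The median log2 ratio of the 10 genes over other cells was 1.51 in set 1 and 1.22 in set 2, while that of all tested genes was 0.37 and 0.28. Enteroendocrine-gated cells differed from dividing stem-high cells in depth (median 14207 and 14660 UMIs against 36984 and 37278), in the ribosomal protein share of UMIs (15.5% and 13.4% against 33.9% and 31.7%), and in the summed level of 10 immediate early genes (6507 and 6715 CPM against 1852 and 2227). UMIs of mitochondrial and ribosomal protein genes were also left out of the scaling. The median log2 ratio was then 1.10 and 0.84 for the 10 genes, and 0.08 and 0.02 for all tested genes. With that scaling 2 of the 10 genes, Chac1 and Sesn2, passed 2-fold in both sets, beside 15.8% of all genes. Of the 10, 0 were 2-fold below, beside 12.8%. Among cells of 10000 to 25000 UMIs the same 6 genes passed, beside 16.9% of all genes. The part of immediate early genes in these differences was not tested.

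Of the 3 transcription factors, Atf4 stood at 561 CPM (interval 539 to 584) in enteroendocrine-gated cells of set 1 and 529.6 (508 to 552) in set 2. In dividing stem-high cells it stood at 179 (175 to 183) and 217 (211 to 223), and in enterocyte-gated cells at 223 (208 to 239.6) and 225 (213 to 238). Atf4 was thus high in a single class, with the other 4 compared classes between 179 and 225 CPM. With each cell thinned to 2000 UMIs, 63.7% of enteroendocrine-gated cells in set 1 (57.8 to 69.4%) and 62.7% in set 2 (56.5 to 68.3%) were expected to hold an Atf4 UMI, against 30.1% (27.3 to 32.9%) and 34.9% (31.2 to 38.7%) of dividing stem-high cells.

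Ddit3, which encodes CHOP, was high in both differentiated classes. It stood at 166 CPM (154 to 179) and 159 (147 to 171) in enteroendocrine-gated cells, and at 141 (129 to 154) and 189 (179 to 201) in enterocyte-gated cells. Dividing stem-high cells had 18.3 (17.0 to 19.7) and 28.8 (26.7 to 31.1), the lowest of the compared classes. The intervals of these classes lay apart in both sets, narrowly in set 1, with enteroendocrine-gated cells higher in set 1 and enterocyte-gated cells higher in set 2. Xbp1, like Atf4, was highest in enteroendocrine-gated cells among the compared classes, with 255 CPM (240.1 to 271) and 223 (209 to 237) in enteroendocrine-gated cells, 103 (92.8 to 115) and 115 (107 to 124) in enterocyte-gated cells, and 83.5 (80.6 to 86.4) and 86.7 (82.9 to 90.5) in dividing stem-high cells. Goblet-gated cells, a mucus-secreting class of only 27 and 10 cells, had 178 (147 to 213) and 179.7 (135 to 234) CPM of Xbp1.

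Among the targets, Chac1, a glutathione-degrading enzyme, had the largest ratio to other cells, 4.05 on the log2 scale in set 1 and 2.73 in set 2. It stood at 55.6 CPM (48.7 to 63.3) and 31.0 (26.0 to 36.7) in enteroendocrine-gated cells, and at 1.17 (0.854 to 1.57) and 2.71 (2.08 to 3.47) in dividing stem-high cells. These levels rest on 231 and 136 UMIs in the first class and 45 and 63 in the second. Sesn2, a leucine sensor that restrains the growth kinase mTORC1, stood at 41.7 (35.7 to 48.3) and 44.7 (38.7 to 51.4) CPM in enteroendocrine-gated cells, and between 5.41 and 11.9 CPM in the other compared classes. Asns, which makes asparagine, was at 236 (222 to 252) and 218 (204 to 232) CPM there and lowest in enterocyte-gated cells, at 54.4 (46.9 to 62.7) and 54.7 (48.9 to 61.0). Trib3, a pseudokinase that feeds back on ATF4, had 18.3 (14.4 to 22.9) and 16.2 (12.6 to 20.4) CPM in enteroendocrine-gated cells, and its interval in set 2 overlapped those of enterocyte-gated and dividing stem-low cells. Ddit4, another inhibitor of mTORC1, stood at 84.7 (76.1 to 94.1) and 75.7 (67.8 to 84.3) CPM there, 0.84 and 0.99 above other cells on the log2 scale.

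Nupr1, a small stress-inducible chromatin protein, departed from the other targets. Its summed level in enteroendocrine-gated cells was 148 CPM (136 to 159.8) in set 1 and 135 (125 to 147) in set 2, but in set 2 a single cell held 421 of the 593 UMIs and the highest 3 cells held 76.1% of them. Resting stem-high cells had 202 (185 to 221) and 274 (261 to 288) CPM. Enterocyte-gated cells had 23.1 (18.3 to 28.8) and 10.0 (7.66 to 12.9), the lowest of the compared classes in both sets. The highest level was in revival-gated cells, which carry annexin and S100 markers, with 1309 (1206 to 1418) and 976 (921 to 1033) CPM. That class held only 19 and 27 cells, and its highest 3 cells held 69.0% and 54.0% of its Nupr1 UMIs.

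Hspa5, the main ER chaperone BiP, stood at 1162 CPM (1129 to 1195) and 1241 (1208 to 1274) in enteroendocrine-gated cells. Enterocyte-gated cells had 517 (493 to 541) and 637 (617 to 657), and dividing stem-high cells 331 (325 to 337) and 428 (419.8 to 437). The order enteroendocrine, then enterocyte, then dividing stem-high was the same in both sets with intervals apart. Goblet-gated cells had 678 (618 to 744) and 676 (587 to 775). Thinned to 2000 UMIs, 82.3% (77.2 to 86.6%) and 87.3% (82.6 to 90.9%) of enteroendocrine-gated cells showed an Hspa5 UMI, against 47.1% (44.1 to 50.2%) and 54.8% (50.9 to 58.7%) of dividing stem-high cells.

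**Figure D1:**
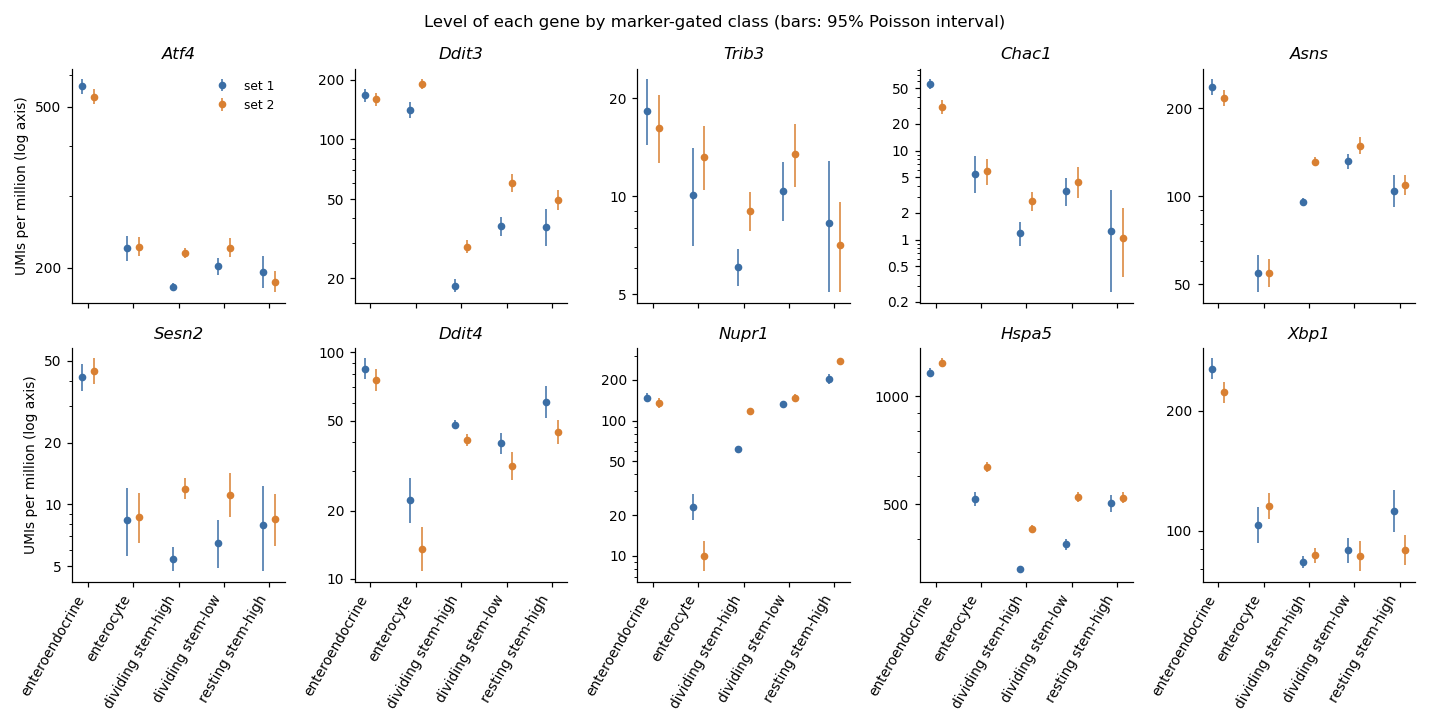
Level of each of the 10 genes in CPM (log axis) in the 5 compared marker-gated classes, with set 1 in blue, set 2 in orange and bars for the 95% Poisson interval. Enteroendocrine-gated cells are highest for 8 genes in both sets; Ddit3 is also high in enterocyte-gated cells, and Nupr1 is highest in resting stem-high cells.

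In thinned shares, 9 of the 10 genes were detected more often in enteroendocrine-gated than in dividing stem-high cells in both sets, all but Nupr1, as were 56% of all tested genes. The intervals lay apart in both sets for 7 of the 10, against 12.6% of all tested genes, and overlapped in at least 1 set for Trib3 and Ddit4. Without thinning, 4 of the 10 genes (Ddit3, Chac1, Sesn2 and Xbp1) were detected more often in enteroendocrine-gated cells in both sets, against 24.5% of all tested genes, and dividing stem-high cells had more UMIs per cell. Chac1 was seen in 29.5% and 27.3% of enteroendocrine-gated cells and in 3.61% and 7.64% of dividing stem-high cells without thinning, and in 8.64% (5.65 to 12.7%) and 6.11% (3.68 to 9.82%) against 0.214% (0.0231 to 0.688%) and 0.504% (0.0968 to 1.36%) after it. Shallower cells, 265 in set 1 and 77 in set 2, have no place in the thinned shares. No class here is known to lack these genes, so no share from free RNA could be set beside them.

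Enterocyte-gated cells, the absorptive class, had 1 of the 10 genes at least 2-fold above other cells in both sets, Ddit3, against 5.22% of all tested genes. Asns, Ddit4 and Nupr1, or 3 of 10, were at least 2-fold below against 11.4%. Nupr1 alone stayed past 2-fold below in both sets with a mitochondrial limit of 10%, where the log2 ratios of Asns were -0.37 and -0.92 and those of Ddit4 -1.30 and -0.89, against 7.15% of all tested genes. It was also the only one with no mitochondrial limit (9.17%), with a pseudocount of 10 CPM (2.98%) and with the gate thresholds halved (5.71%). Ddit4 stood at 22.3 (17.6 to 27.8) and 13.6 (10.8 to 16.8) CPM in these cells. Their median mitochondrial share was 13.5% and 14.3%, the highest of the compared classes. Among cells of 10000 to 25000 UMIs the ratio of Ddit3 over other cells was 0.25 in set 1 and 1.34 in set 2 on the log2 scale, with only 6 and 14 enterocyte-gated cells in that window, where 0 of the 10 genes were 2-fold above other cells in both sets, against 4.29% of all tested genes. With a mitochondrial limit of 10% the ratio of Ddit3 was 1.11 and 1.28, from 1.90 and 1.62.

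In dividing stem-high cells, the largest class, 0 of the 10 genes were 2-fold above other cells (0.388% of all tested genes were) and 2, Ddit3 and Chac1, were 2-fold below (6.79% were). The median log2 ratio of the 10 genes was -0.91 and -0.45, against -0.13 and -0.07 for all tested genes. Enteroendocrine-gated cells were part of the cells these ratios were taken over.

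Within the enteroendocrine class, cells were divided by hormone genes after the class values had been seen, into Neurog3-positive cells (102 and 68), cells led by Tph1 or Tac1, genes of serotonin and substance P (126 and 107), and cells led by the peptide hormone genes Cck, Gcg or Sct (53 and 103). Ddit3, Chac1, Asns and Nupr1, or 4 of the 10 genes, were at least 1.5-fold higher in Tph1/Tac1-led than in Cck/Gcg/Sct-led cells in both sets, against 13.5% of all tested genes. Ddit3 was at 263 CPM (240.1 to 287) against 90.7 (71.8 to 113) in set 1, and at 264 (240.5 to 289.6) against 95.3 (81.5 to 111) in set 2. Neurog3-positive cells had 82.7 (68.3 to 99.3) and 80.7 (62.9 to 102), with intervals that overlapped those of the Cck/Gcg/Sct-led cells. Ddit3 was thus high in a single enteroendocrine subgroup, in both sets alike.

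Chac1 was at 92.5 CPM (79.3 to 107) in Tph1/Tac1-led cells of set 1 against 17.2 (9.64 to 28.4) in Cck/Gcg/Sct-led cells, and at 43.6 (34.3 to 54.6) against 24.0 (17.3 to 32.3) in set 2. Asns was at 277 (254 to 302) against 171 (145 to 201) and at 276 (252 to 302) against 181 (161 to 201). The intervals of both genes lay apart in each set. Nupr1 was at 256 against 63.1 CPM and at 301 against 31.2, and without the 3 highest cells of each subgroup at 162 against 28.3 and at 41.2 against 21.1. Atf4 was 1.45-fold and 1.39-fold higher in the Tph1/Tac1-led cells with intervals apart, and Hspa5 1.42-fold and 1.15-fold. Xbp1 and Trib3 had overlapping intervals in both sets. The median depth was lower in Tph1/Tac1-led cells (14084 and 14705 UMIs against 16905 and 18530.0), and the summed immediate early genes were at 8815 and 9540.4 CPM in Tph1/Tac1-led and 3893 and 4276 in Cck/Gcg/Sct-led cells, and 9 heat shock genes at 4751 and 4455 against 2767 and 2829. Their part in the difference was not tested.

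**Figure D2:**
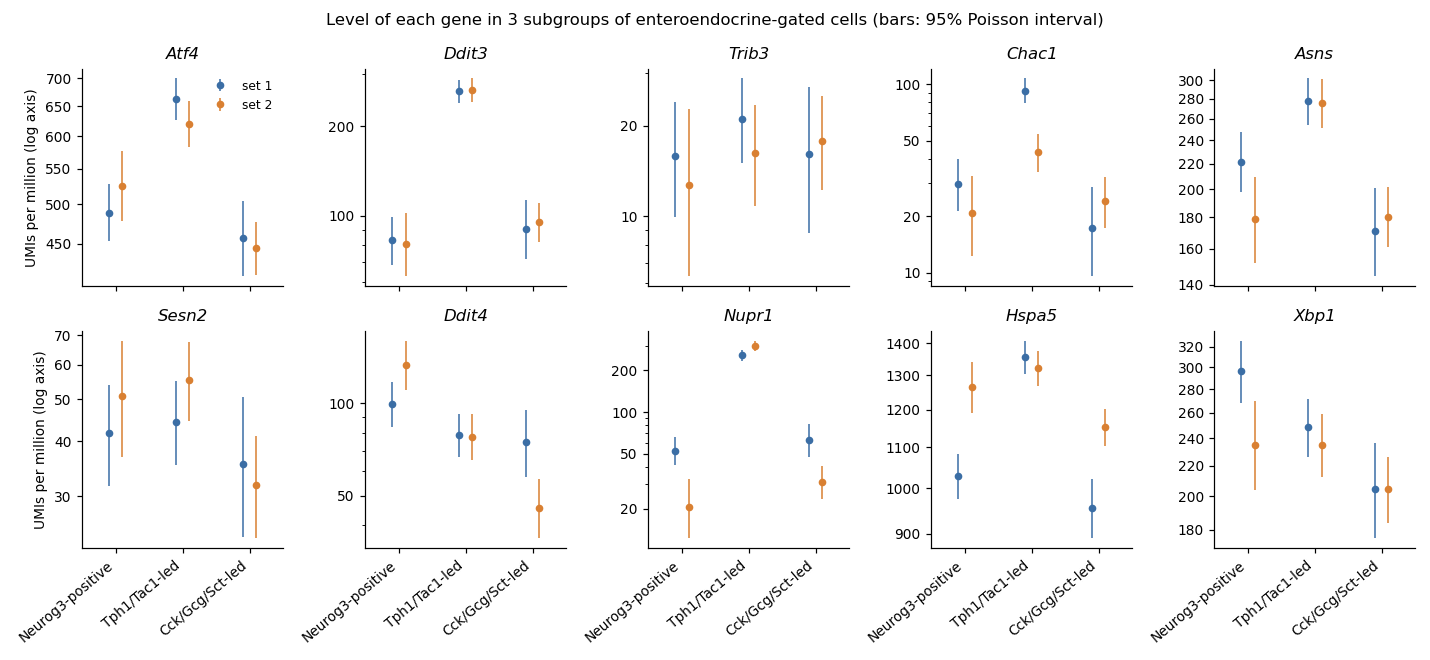
Level of each gene in CPM (log axis) in the 3 subgroups of enteroendocrine-gated cells, with set 1 in blue, set 2 in orange and bars for the 95% Poisson interval. Ddit3, Chac1, Asns and Nupr1 are at least 1.5-fold higher in Tph1/Tac1-led than in Cck/Gcg/Sct-led cells in both sets.

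Between the sets, 7 of the 10 genes were higher in set 2 with intervals apart (20.9% of all tested genes were) and 1, Ddit4, was higher in set 1 (12.2% were), while Chac1 and Xbp1 overlapped. Ddit3, Sesn2 and Nupr1, or 3 of 10, were at least 1.5-fold higher in set 2, against 2.46% of all tested genes, and 0 were 1.5-fold higher in set 1, against 1.4%. As a log2 ratio of set 2 over set 1, the median was 0.28 for the 10 genes and 0.03 for all tested genes.

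The transcription factors differed among themselves. Ddit3 stood at 42.9 CPM (41.3 to 44.6) in set 1 and 76.0 (73.7 to 78.5) in set 2, a ratio of 1.75. In set 2 a single cell held 288 of the 3887 Ddit3 UMIs, and without the 3 highest cells of each set the log2 ratio was 0.71, from 0.81. That cell had 106869 UMIs in all and passed the gates of several classes. Atf4 stood at 219 (215 to 222) and 247 (243 to 252), a ratio of 1.13, and Xbp1 at 101 (98.5 to 104) and 104 (102 to 107). The ratios of Atf4 and Xbp1 were thus smaller than that of Ddit3.

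Among the targets, Sesn2 stood at 8.68 CPM (7.96 to 9.45) in set 1 and 14.5 (13.4 to 15.5) in set 2, and Nupr1 at 110.1 (108 to 113) and 168 (165 to 172). Trib3 had 8.54 (7.82 to 9.30) and 10.8 (9.96 to 11.8), and Asns 109 (107 to 112) and 129 (126 to 132). Chac1 had 6.0 (5.41 to 6.65) and 6.16 (5.50 to 6.88). Only Ddit4 was lower in set 2, at 40.9 (39.2 to 42.7) against 49.5 (47.7 to 51.3). Hspa5 had 433 (428 to 439) and 567 (560.2 to 573), a ratio of 1.31.

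The sets also differed in the mix of classes: 12.2% of kept cells in set 1 (10.9 to 13.6%) and 15.7% in set 2 (14.1 to 17.5%) were enteroendocrine-gated, 4.78% (3.95 to 5.74%) and 9.68% (8.34 to 11.2%) enterocyte-gated, and 45.8% (43.7 to 47.8%) and 36.3% (34.1 to 38.6%) dividing stem-high. With the same class mix in both sets, 0 of the 10 genes passed 1.5-fold in set 2, beside 1.11% of all tested genes, and the log2 ratios were 0.42 for Ddit3, 0.58 for Sesn2 and 0.28 for Nupr1. Among the 496 and 504 cells of 10000 to 25000 UMIs, 0 of 10 were 1.5-fold higher in set 2, beside 2.42% of all tested genes. There 1, Hspa5, was higher in set 2 with intervals apart, beside 3.39%. Chac1 passed 1.5-fold with set 1 higher, at a log2 ratio of -0.98, and the share of all tested genes that did so was not counted. There Ddit3 stood at 102 CPM in set 1 and 101 in set 2, Nupr1 at 209 and 167, and Chac1 at 29.7 and 14.6, while Sesn2 was at 23.4 and 29.6. Of the 3 genes past 1.5-fold in all kept cells, Sesn2 alone kept a log2 ratio above 0 there, at 0.32.

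In dividing stem-high cells 4 of the 10 genes, Ddit3, Chac1, Sesn2 and Nupr1, were at least 1.5-fold higher in set 2, against 2.06% of all tested genes. Sesn2 stood at 5.41 CPM (4.70 to 6.20) and 11.9 (10.6 to 13.4), Nupr1 at 61.8 (59.3 to 64.3) and 117 (113 to 122), and Ddit3 at 18.3 and 28.8. Of the 10 genes, 8 were higher there in set 2 with intervals apart, against 15.8% of all tested genes, and Ddit4 was higher in set 1, against 6.99%. In dividing stem-low cells 2 genes, Ddit3 and Sesn2, passed 1.5-fold, against 3.6%. Ddit3 stood there at 36.5 (32.7 to 40.7) and 60.3 (54.2 to 66.8) CPM.

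In enteroendocrine-gated cells 1 of the 10 genes, Chac1, was at least 1.5-fold higher in set 1, against 8.36% of all tested genes, and in enterocyte-gated cells 2, Ddit4 and Nupr1, against 7.73%. In enteroendocrine-gated cells the intervals of 7 of the 10 genes overlapped between sets, as did those of 92.5% of all tested genes. Genes were also higher in set 2 with intervals apart outside the dividing classes, Ddit3 and Hspa5 in enterocyte-gated cells, Hspa5 in enteroendocrine-gated cells and Nupr1 in resting stem-high cells, all by less than 1.5-fold. Genes higher in set 1 with intervals apart there were Chac1 and Xbp1 in enteroendocrine-gated cells, Ddit4 and Nupr1 in enterocyte-gated cells, and Ddit4 and Xbp1 in resting stem-high cells. In resting stem-high cells 0 of the 10 genes passed 1.5-fold, against 7.54% of all tested genes higher in set 2 and 6.82% higher in set 1. Whether the ratio between sets differs between classes was not tested. The summed immediate early genes were at 1852 and 2227 CPM in dividing stem-high cells of sets 1 and 2 and the summed heat shock genes at 4535 and 4988, and their part in the difference was not tested.

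**Figure D3:**
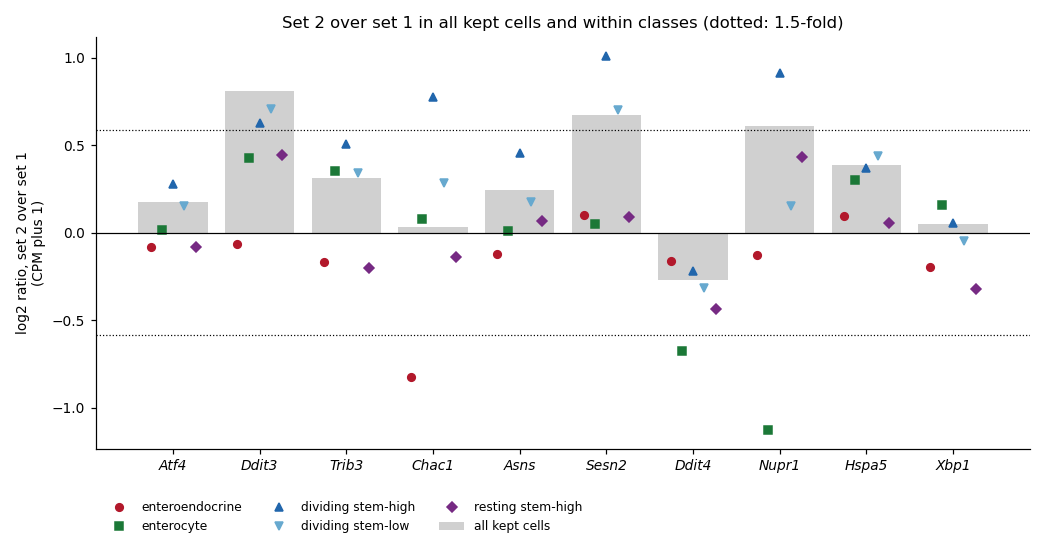
Log2 ratio of set 2 over set 1 (CPM plus 1) for each gene in all kept cells (grey bars) and within the 5 compared classes (symbols), with dotted lines at 1.5-fold. Ddit3, Chac1, Sesn2 and Nupr1 lie above the upper line in dividing stem-high cells, Chac1 lies below the lower line in enteroendocrine-gated cells and Ddit4 and Nupr1 in enterocyte-gated cells.

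The genes differed in how evenly cells held their UMIs. The 1% of cells with most UMIs of a gene (23 cells in set 1 and 18 in set 2) held 41.1% and 26.7% of the Chac1 UMIs and 26.3% and 26.9% of the Nupr1 UMIs, but 4.60% and 5.02% of Atf4, 4.69% and 4.41% of Hspa5 and 4.79% and 4.36% of Xbp1. For Chac1, 20 of the 23 highest cells in set 1 and 10 of the 18 in set 2 were enteroendocrine-gated. For Nupr1, 9 of the 18 highest in set 2 were revival-gated, and in set 1 they were scattered, with 5 enteroendocrine-gated and 5 revival-gated. A Chac1 UMI was found in 191 of 2300 cells and 197 of 1766, a Hspa5 UMI in 2078 and 1695. Ddit3 lay between, at 14.8% and 18.5%. Without the 3 highest cells of each set, the Chac1 log2 ratio of enteroendocrine-gated over other cells was 3.83 and 2.80, from 4.05 and 2.73. That of Nupr1 in set 2 was -1.98, from -0.34. A few cells can therefore carry the summed level of Nupr1 in a class, and hardly that of Atf4, Hspa5 or Xbp1. The share in the highest 1% also depends on how many UMIs a gene has, and Chac1 had only 370 and 315.

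**Figure D4:**
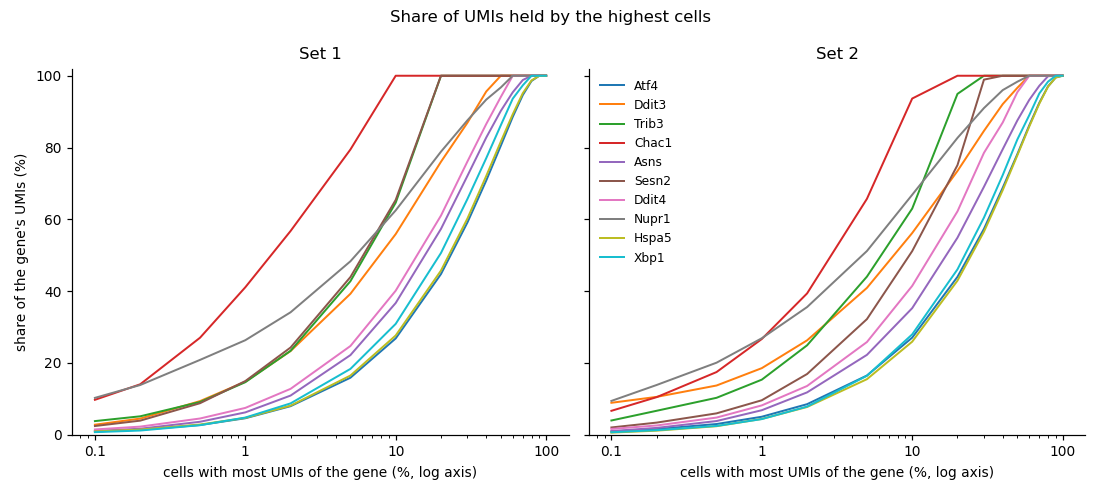
Share of each gene's UMIs (vertical axis, %) held by the cells with most UMIs of that gene (horizontal axis, % of kept cells, log axis), for set 1 and set 2. Chac1 and Nupr1 reach the highest shares at 1% of cells, while Atf4, Hspa5 and Xbp1 lie lowest, at 4.36 to 5.02%.

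Across kept cells, Pearson's r of log UMIs per 10000 was at least 0.2 in both sets for 11 of the 45 pairs of the 10 genes, with Ddit3 and Hspa5 at 0.37 and 0.34 and Atf4 and Hspa5 at 0.31 and 0.35. After thinning each cell to 2000 UMIs 0 of the 45 pairs reached 0.2 in both sets, and 0.0451% of all pairs of the 7357 genes at 10 CPM or more did. Without thinning, 5 pairs did within enteroendocrine-gated cells, with Atf4 and Hspa5 at 0.51 and 0.31, and 1 pair, Asns and Nupr1, within dividing stem-high cells. After thinning, 0 of the 45 pairs did within either class, beside 0.0125% and 0.000473% of all pairs of the 7357 genes. Atf4 and Hspa5 were then at 0.176 and 0.165 within enteroendocrine-gated cells. Among all pairs of those 7357 genes, 1.45% without thinning reached 0.2 in both sets over all kept cells, 0.166% within enteroendocrine-gated and 0.134% within dividing stem-high cells. Those 7357 genes hold 8 of the 10, all but Trib3 and Chac1, whose pairs are among the 45. Outside the 10 genes, those most like Hspa5 were Neat1, Nktr, Aplp1, Pam and Herpud1, with r of 0.41 to 0.46 in both sets. Those most like the sum of Trib3, Chac1, Asns, Sesn2, Ddit3 and Nupr1 were Neat1, Atf5, Jund, Gars and Atf3, with r of 0.25 to 0.35. Cells share library, depth and class, so these values are descriptions.

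The limit of 20% mitochondrial UMIs decides which barcodes count as cells, and levels were therefore also taken per 1000000 non-mitochondrial UMIs in bins of that share. Atf4, Ddit3, Trib3, Sesn2, Ddit4 and Hspa5, or 6 of the 10 genes, were higher in barcodes of 20 to 50% than in those of 10% or less in both sets, against 59.9% of all tested genes. Only Atf4 was at least 1.5-fold higher in both sets, against 19.9%. Neither share stands out from that of all genes. Atf4 stood at 238 (233 to 243) and 359 (348 to 371) in the low and high bin of set 1, and at 269.6 (264 to 276) and 461 (448 to 475) in set 2. Asns lay the other way, at 132 (128 to 136) and 115 (108 to 121) in set 1 and 159 (155 to 164) and 118 (111 to 125) in set 2.

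Nupr1 differed between the sets here, with 119.9 (116 to 123) and 304 (294 to 315) in the low and high bin of set 1, and 198 (193 to 203) and 180.0 (172 to 189) in set 2. Set 2 was thus the higher set below the limit and set 1 above it. The 20 to 50% bin held 2467 and 1886 barcodes with median depths of 4750.0 and 5559 UMIs, of which 3.32% and 3.02% passed the enteroendocrine gate, against 16.0% and 21.0% at 10% or less. What the change in cell mix and depth does to these levels was not tested.

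**Figure D5:**
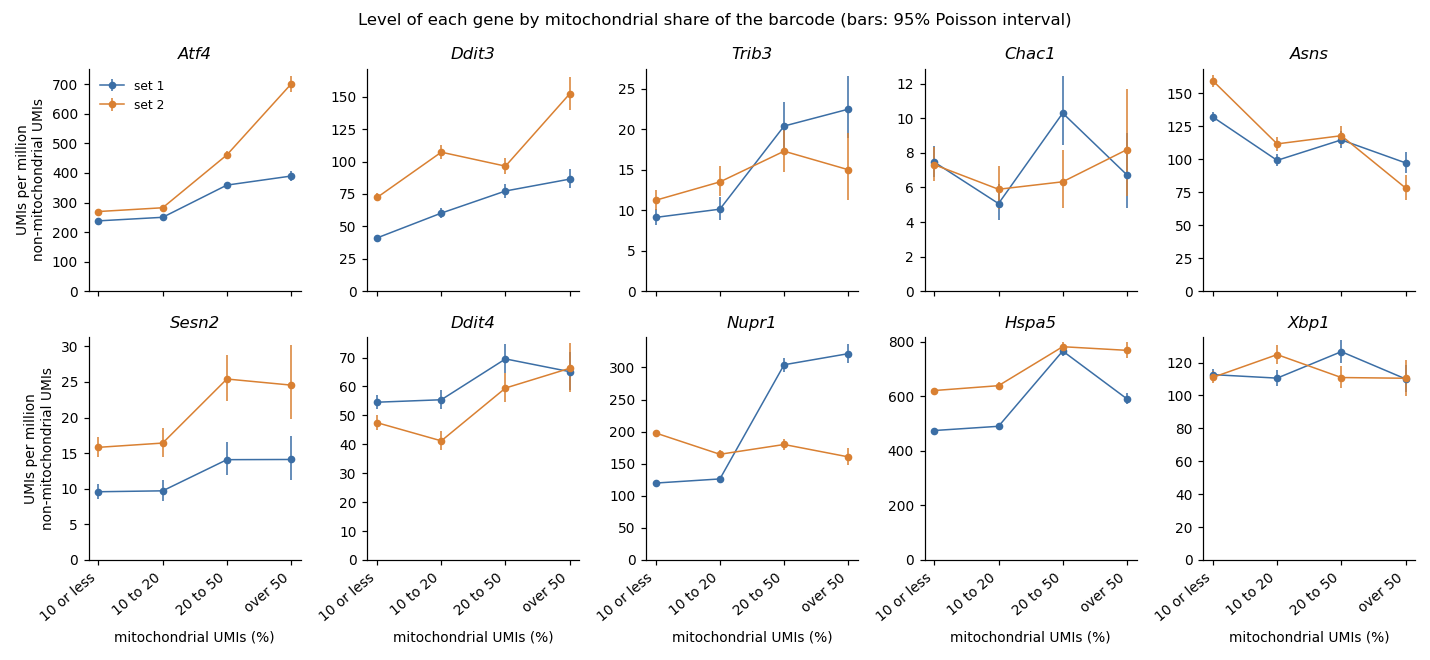
Level of each gene per 1000000 non-mitochondrial UMIs in 4 bins of the mitochondrial share of the barcode (horizontal axis, %), with set 1 in blue, set 2 in orange and bars for the 95% Poisson interval. Atf4 climbs in both sets, Asns falls from the lowest to the next bin, and the set order of Nupr1 is inverted above 20%.

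The rest of the pathway was described from lists that were written with earlier results of these data known. Of 11 sensors and eIF2 regulators, 5 were at least 2-fold higher in enteroendocrine-gated than in other cells in both sets and 0 lower, against 21.2% and 7.33% of all tested genes. They were the kinase PERK (Eif2ak3, 26.5 and 35.8 CPM), IRE1 (Ern1, 21.9 and 25.8), Atf6 (266 and 177) and the eIF2 phosphatase subunits Ppp1r15a (163 and 166) and Ppp1r15b (88.4 and 92.1). Of 33 tested ER targets of ATF6 and XBP1, 12 were higher and 0 lower, among them the ER-associated degradation gene Herpud1 at 384 and 329 CPM, the co-chaperone Dnajb9 at 155 and 151, and the translocon subunit Sec61a1 at 258 and 261. Aars and Gars were the 2 of 12 aminoacyl-tRNA synthetases that were higher. With mitochondrial and ribosomal protein UMIs left out of the scaling, the counts of higher genes were 4 of 11 regulators, 5 of 33 ER targets and 0 of 12 synthetases, beside 15.8% of all tested genes. With that scaling 1 of the regulators, Eif2s1, which encodes the alpha subunit of eIF2, was lower, as were 0 ER targets and 0 synthetases, beside 12.8% of all tested genes.

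Of the other ATF4 and CHOP targets, 5 of 26 were higher in enteroendocrine-gated cells (Slc7a5, Vldlr, Gdf15, Bbc3 and Cdkn1a), a share near the 21.2% of all tested genes, and 4 were lower, against 7.33% (Phgdh, Shmt2, Pmaip1 and Cth). With mitochondrial and ribosomal protein UMIs left out of the scaling, 5 were higher and 5 lower, with Psph added to the lower ones, beside 15.8% and 12.8%. Phgdh, the first enzyme of serine synthesis, stood at 31.1 and 23.5 CPM in these cells, with log2 ratios over other cells of -2.32 and -3.03. In enterocyte-gated cells 0 of the 26 were 2-fold higher and 7 lower (Psat1, Phgdh, Psph, Shmt2, Pycr1, Gdf15 and Stc2), against 5.22% and 11.4% of all tested genes, while Ddit3 was high there.

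Between the sets, the median log2 ratio was 0.27 over the other ATF4 and CHOP targets, 0.11 over both the aminoacyl-tRNA synthetases and the ER targets and 0.10 over the sensors and eIF2 regulators, beside 0.03 for all tested genes. It was 0.36 over the immediate early genes and 0.27 over the heat shock genes, the lists given for context. At the upper end, the cystine transporter Slc7a11 stood at 9.54 (8.79 to 10.3) and 19.5 (18.4 to 20.8) CPM and the stress factor Atf3, which is also an immediate early gene, at 226 (222 to 229.6) and 369 (364 to 375). At the lower end, Shmt2 and Cth had ratios of 0.02 and -0.03. Ppp1r15a (0.55) and Ppp1r15b (0.36) led the regulators, with Eif2s1 (0.02) and Atf6 (-0.13) at the other end. Yars and Aars (0.35 each) and Dnajb9 (0.37) and Herpud1 (0.27) led their lists, whose lowest were Eprs (-0.04), Tars (-0.09), Spcs2 (-0.15) and Sec61b (-0.17). In the context lists, Btg2 (0.65) and Atf3 (0.71) led the immediate early genes over Fos (0.28) and Ier2 (0.19), and Hspa1b (0.44) and Hspa1a (0.36) led the heat shock genes over Hspd1 (-0.08) and Hspe1 (-0.11).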

How the data were processed

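The deposited matrix holds UMI counts per gene and barcode as whole numbers, not normalized by the authors, per the file headers. The submitters' processing notes name Cell Ranger 3.1.0, STAR 2.7.3a and bcl2fastq 2.20.0, and the header gives software version 3.1.0. The genome build and annotation were not given in the sources used here. The barcode and gene files deposited by the authors hold names only.

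The files of both samples were identical, so each barcode suffix is given as a set and no test was run. The members and lists were chosen with earlier results of these data known. Cells were barcodes from 500 genes and 1000 UMIs upwards with a mitochondrial share up to 20%. UMIs were summed over cells and scaled per 1000000 UMIs (CPM), with exact Poisson intervals, and shares have Clopper-Pearson intervals. Log2 ratios used CPM plus a pseudocount of 1, which understates ratios of low genes. Called genes were 1.5-fold apart between sets, or 2-fold apart from other cells in both sets, among genes with 10 or more UMIs. Shares were thinned to 2000 UMIs per cell by the hypergeometric distribution, and the correlations by 1 seeded draw.

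Gates were set on summed marker UMIs per 10000 after seeing the score distributions: enteroendocrine 50, enterocyte 150, goblet 40, Paneth 20, revival 20 and tuft 5, then dividing 10 and stem 5, each with at least 3 or 4 markers detected. Near their gate, within 25% of it, lay 17 enteroendocrine, 53 enterocyte and 682 stem scores. Cells passing several gates (41 and 37) and ungated cells (288 and 169, in set 1 with a median of 1686.5 UMIs) were counted among other cells only. No doublet caller was run. Cells passing several gates were set apart, and the top 5% by UMIs left out as an alternative. Named genes were the members, the 2 highest and 2 lowest set ratios of each list at 10 CPM or more, and the 5 genes most correlated with Hspa5 and with the summed targets. Genes called by class were named after their values were seen. Analyses used Python 3.11.15, numpy 2.4.6, scipy 1.17.1, pandas 2.3.3 and matplotlib 3.10.9, and ratios and intervals were tested on simulated data.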

Additional observations from a re-analysis of the deposited data

Results flagged for a closer look

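Chac1 differed between sets in opposite directions in 2 classes: its log2 ratio of set 2 over set 1 was -0.82 in enteroendocrine-gated and 0.77 in dividing stem-high cells, a difference of -1.60. Nupr1 did so too, with -1.13 in enterocyte-gated and 0.91 in dividing stem-high cells, a difference of -2.04. Each set is 1 pool, so neither difference was tested. The enterocyte values of Nupr1 rest on 80 and 60 UMIs, of which the highest 3 cells held 45.0% and 43.3%, and the Chac1 values of dividing stem-high cells on 45 and 63 UMIs.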

How the results depend on the processing

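Of 720 values for single genes and lists under 20 alternatives, 555 stayed within 0.2 on the log2 scale of the reported value, 162 moved further and 3 changed direction after having passed 1.5-fold. Cells of 10000 to 25000 UMIs and an equal class mix were alternatives chosen after seeing the data. The count of genes at least 2-fold higher in enteroendocrine-gated cells went from 6 to 2 with scaling without mitochondrial and ribosomal protein UMIs. It was 6 to 8 under the others. Leaving those UMIs out takes more from dividing than from enteroendocrine-gated cells. The median log2 ratio of the 10 genes over other cells was 1.51 and 1.22, and with that scaling 1.10 and 0.84. With that scaling, chosen for the lists after seeing the data, higher ER targets went from 12 to 5 and higher aminoacyl-tRNA synthetases from 2 to 0. The count of genes 1.5-fold apart between sets went from 3 to 1 with the unweighted mean of single-cell CPM. With a pseudocount of 10 CPM it also went to 1, and with an equal class mix to 0. For the unweighted mean and the pseudocount the share of all tested genes was not counted. In cells of 10000 to 25000 UMIs it was 1 as well, but that gene was Chac1, higher in set 1 (log2 ratio -0.98) and not one of the 3. In cells of 10000 to 25000 UMIs, which are fewer, the count of genes higher in set 2 with intervals apart went from 7 to 1 (all tested genes from 20.9% to 3.39%) and that of genes 2-fold higher in enterocyte-gated cells from 1 to 0 (from 5.22% to 4.29%). The count 2-fold lower in enterocyte-gated cells, a result added after seeing the data, went from 3 to 1 with a mitochondrial limit of 10%, no such limit, a pseudocount of 10 CPM and halved gate thresholds, and was 2 or 3 under the others. The ratio of Nupr1 changed direction with the unweighted mean of single-cell CPM (-0.18), which weights shallow cells more, and in cells of 10000 to 25000 UMIs (-0.32), where that of Ddit3 was -0.015. The cause of the changes in that depth window was not tested. The count of genes detected more often in enteroendocrine-gated cells went from 9 to 4 without thinning (all tested genes from 56% to 24.5%), and that of correlated pairs from 11 to 0 with thinning to 2000 UMIs (all pairs from 1.45% to 0.0451%). The unweighted mean of single-cell CPM has no Poisson interval and gave no count of intervals apart. No paired analysis was possible because each group has 1 sample and both hold the same matrix. Depth limits Chac1, Trib3 and Sesn2 most, with 315 to 739 UMIs per set.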

Other observations

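Cells passing several gates (41 in set 1 and 37 in set 2) had the highest Ddit3 level of any group in set 2, 358 CPM (323 to 396) with a single cell holding 288 of 373 UMIs, and 125 (103 to 151) in set 1. Ungated cells had Nupr1 at 327 (304 to 352) and 291 (273 to 311) CPM. Tuft-gated cells numbered 8 and 2, and in set 2 the 2 cells held 0 UMIs of Ddit3, where a floor of 3 counts is 162 CPM. Goblet-gated cells had Ddit4 at 107 (83.4 to 134) CPM in set 1 and 45.7 (25 to 76.7) in set 2, and Nupr1 at 465 (415 to 519.5) and 35.9 (17.9 to 64.3), where the highest 3 of 27 and of 10 cells held 77.4% and 81.8% of the Nupr1 UMIs.

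In barcodes with over 50% mitochondrial UMIs, Atf4 stood at 389.6 (374 to 406) per 1000000 non-mitochondrial UMIs in set 1 and 701 (674 to 728) in set 2, and Asns at 97.3 (89.6 to 105) and 78.3 (69.5 to 87.9). Of these barcodes, 72.7% and 60.1% passed no gate.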
